A study of Mus musculus with 8 samples.

Results

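Haemoglobin transcripts in these endothelial libraries lay almost wholly in few barcodes, with 169619 of 286600 UMIs in 88 barcodes that did not pass the cell filters and have no class, while Cyb5r3 was counted across endothelial cells of every class and was highest in lymphatic-like cells. The genes described are Hba-a1 and Hba-a2, which encode adult alpha globin, Hbb-bs and Hbb-bt, which encode adult beta globin, and Cyb5r3, which encodes NADH-cytochrome b5 reductase. They are 5 of the 30406 genes listed in all 8 libraries, found by symbol in the feature list of run B and matched to run A by gene identifier. The haemoglobin genes were chosen after earlier results of these data had named them for differences in arterial cells of adipose tissue and of mice on high fat diet. Their values in those contrasts are therefore given as a description with no test.

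Endothelial cells were sorted for YFP from male ROSA26-eYFP+/+ Cdh5-CreERT2+ mice. Every mouse received tamoxifen in its food at 6 weeks of age for 2 weeks, and the Cdh5 promoter limits the inducible Cre to endothelial cells. From 8 weeks of age the mice ate normal chow with 5.8% fat or a high fat diet with 60% fat for 12 to 13 weeks. The 4 groups were mesentery on chow, mesentery on high fat diet, epididymal adipose on chow and epididymal adipose on high fat diet, each with 2 libraries made in separate runs called A and B, and each library pooled tissue of 6 mice. The protocol held a step that lyses red blood cells before the sort, and all libraries passed through it. Since a library is 1 pool, n is 2 per group, and the spread between libraries holds the difference between runs.

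Haemoglobin is a tetramer of alpha and beta chains, each holding a haem group, and its genes are transcribed at very high levels in red cell precursors. Alpha globin has also been described in the endothelium of small arteries, where it binds nitric oxide on its way to smooth muscle. Cyb5r3 reduces the haem iron of such a globin, and in red cells it keeps haemoglobin in the form that carries oxygen.

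The promoters of the haemoglobin genes are shown because the genes of the alpha pair cannot be told apart in their sequence and because the 4 genes are counted together below. In GRCm38, Hba-a1 lies at chr11:32283511-32284465 and Hba-a2 at chr11:32296489-32297298, both on the plus strand, and Hbb-bs lies at chr7:103826534-103828096 and Hbb-bt at chr7:103812524-103813996, both on the minus strand. Cyb5r3 lies at chr15:83153494-83172592 on the minus strand. The 250 bases before the start of the RefSeq model are given 5′ to 3′ on the gene's strand, from the RefSeq annotation of GRCm38.p6, at chr11:32283422-32283671 for Hba-a1, chr7:103827929-103828178 for Hbb-bs and chr7:103813924-103814173 for Hbb-bt. Capitals mark, on either strand, the letters GATAA of the GATA factors, the letters CACCC of the Klf factors, the CCAAT box and the letters TATAA of the TATA box.
Hba-a1: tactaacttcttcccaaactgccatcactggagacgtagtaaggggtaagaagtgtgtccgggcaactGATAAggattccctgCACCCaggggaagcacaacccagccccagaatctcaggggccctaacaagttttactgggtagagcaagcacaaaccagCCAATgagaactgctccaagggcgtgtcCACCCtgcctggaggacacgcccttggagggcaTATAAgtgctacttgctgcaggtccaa
Hbb-bs: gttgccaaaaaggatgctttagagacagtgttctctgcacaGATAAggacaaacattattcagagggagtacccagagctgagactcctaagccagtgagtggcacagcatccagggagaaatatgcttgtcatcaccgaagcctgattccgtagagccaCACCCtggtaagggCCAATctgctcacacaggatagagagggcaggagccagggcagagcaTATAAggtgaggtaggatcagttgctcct
Hbb-bt: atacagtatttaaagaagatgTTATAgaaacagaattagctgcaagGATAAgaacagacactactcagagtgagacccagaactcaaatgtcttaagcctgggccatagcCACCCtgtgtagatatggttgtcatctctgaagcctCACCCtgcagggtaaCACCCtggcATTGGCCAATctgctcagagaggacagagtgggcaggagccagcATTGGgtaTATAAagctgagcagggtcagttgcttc
The promoter of Hba-a2, at chr11:32296242-32296491, matched that of Hba-a1 at 247 of 247 overlapping bases, so it is not printed. All 4 haemoglobin promoters held all 4 motifs, as did 318 of 32851 promoters of the same length (0.968%). On either strand GATAA was in 22.6% of all promoters, CACCC in 52%, CCAAT in 33.8% and TATAA in 22.8%. In the same 4 promoters a TATAA began 27 to 30 bases before the start. The Hba-a1 and Hba-a2 transcripts matched at 537 of 538 aligned bases (99.8%), and Hbb-bs and Hbb-bt at 582 of 630 (92.4%). The split of UMIs (counted transcript molecules) within the alpha pair is therefore uncertain, and that within the beta pair less so. The sum of the 4 genes is the safer value.

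The libraries held 1352 to 6218 barcodes and 3461360 to 36779289 UMIs each, with the run B libraries deeper than run A. Of 27944 barcodes, 23970 passed limits of 500 UMIs, 300 genes and 10% mitochondrial UMIs, and 23113 were used after 857 called doublets were removed. The mitochondrial limit took 22.8 to 30.8% of the barcodes in run A and 5.4 to 9.0% in run B. Pairs of libraries shared 0 to 10 barcodes, at most 0.31% of the smaller library. Clusters were made without the 5 genes, and the 4 clusters called arterial-like raised 9 to 12 of 12 arterial markers. Cluster 15 of these held mostly cells of run A, and the others mostly cells of run B, so different clusters hold the arterial-like class in the 2 runs.

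Endothelial clusters without a class name held 6335 cells in 9 clusters, some of which raised markers of other cell types. Endothelial markers put them on the endothelial side, yet 3 of the clusters, with 2009 cells, raised adipocyte markers, and 1, with 815 cells, raised mural markers. Clusters 7 and 10 of the former were led by adipocyte genes such as Cfd, Retn, Adipoq and Car3, and the cluster of mural markers by genes such as Aspn, Abcc9, Pdgfrb, Notch3 and Rgs5. Another 156 cells were in a cluster led by genes of dividing cells. Whether such barcodes held 1 cell or several was not tested. All 6335 enter the sums called other endothelial cells and all endothelial cells below, and 42 of them had 10 or more haemoglobin UMIs.

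Haemoglobin UMIs were concentrated in very few barcodes. In order of mesentery chow A and B, mesentery high fat diet A and B, adipose chow A and B, and adipose high fat diet A and B, the 4 genes together had 8, 28804, 11885, 69688, 3899, 66953, 5649 and 99714 UMIs over all barcodes. Mesentery chow A stood apart with 8, and run B exceeded run A in every group. A single haemoglobin UMI was all that 865 of the 1280 barcodes with any held. The 211 barcodes with 10 or more haemoglobin UMIs held 99.47% of the 286600 UMIs, and the top 20 held 36.58%. In 124 barcodes (0.44% of all) haemoglobin made up at least 10% of the UMIs, and these held 93.6% of haemoglobin UMIs. Near that limit, 12 barcodes lay between 5 and 10% and 5 between 10 and 20%, while 93 were over 50% and 71 over 90%.

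**Figure D1:**
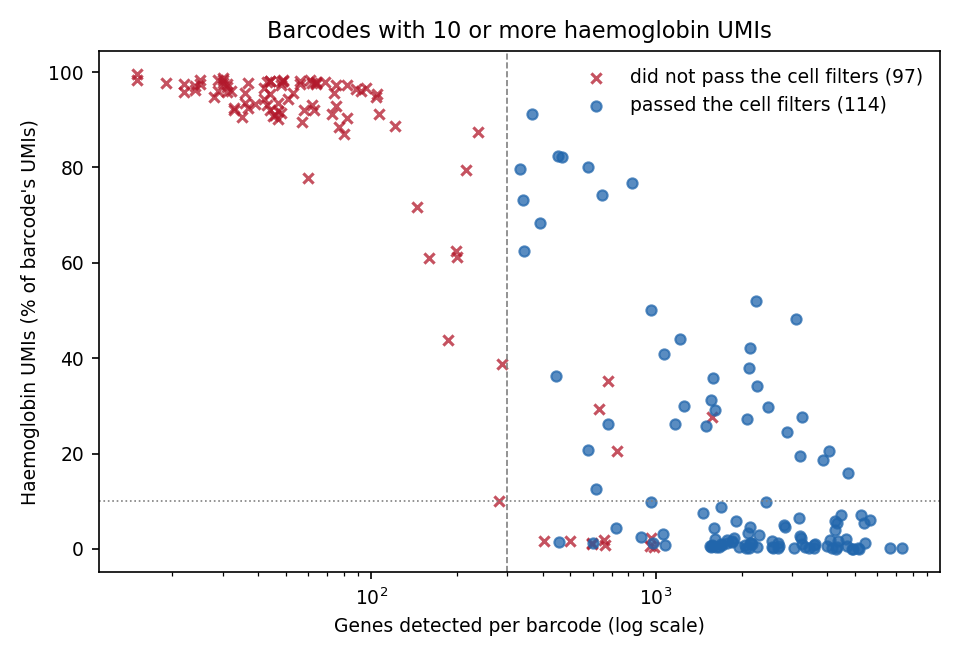
Each point is 1 of the 211 barcodes with 10 or more haemoglobin UMIs, with genes detected on a log axis and haemoglobin as a percent of the barcode's UMIs. The 97 barcodes that did not pass the cell filters are crosses and the 114 that passed are circles; the dashed line is the limit of 300 genes and the dotted line 10%. Barcodes of few genes sit near the top, and those of many genes near the bottom.

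The haemoglobin-rich barcodes are described by whether they passed the cell filters, so their gene numbers follow in part from that split. Haemoglobin ran from 10.07 to 99.5% in those that did not pass and from 12.49 to 91.19% in those that did. Of the 124, 88 did not pass the cell filters, 84 of them by the gene limit, and these had a median of 49 genes, 1502.5 UMIs and 95.4% haemoglobin. Of 10 endothelial markers, 75 of the 88 had a UMI of none. The 36 that passed had a median of 1237 genes and 36.1% haemoglobin, 23 of them had at least 3 endothelial markers, and 2 were called doublets. Below the 10% limit, 78 barcodes with 10 or more haemoglobin UMIs passed, with a median of 1.21% haemoglobin, and 77 of these had at least 3 endothelial markers. Whether a barcode of this last kind held 1 cell, 2 cells, or a cell with free transcripts was not tested.

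All 4 haemoglobin genes shared this concentration and Cyb5r3 did not. The haemoglobin-rich barcodes held 92.54% of the 69738 Hba-a1 UMIs, 92.49% of the 53684 of Hba-a2, 94.22% of the 140595 of Hbb-bs and 95.7% of the 22583 of Hbb-bt. They held 0.11% of the 29980 Cyb5r3 UMIs, which were spread over 13063 barcodes. These barcodes were chosen on haemoglobin, so its shares describe the choice. For comparison, they held 0.35% of all UMIs.

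Some genes of red cells that the choice did not use lay mostly in the same barcodes, and others did not. Of the 20 erythroid genes listed, 19 were in the feature lists, and all 19 had a UMI in some barcode of the series. The haemoglobin-rich barcodes held 3.54% of the UMIs of this list, beside 0.35% of all UMIs. Alas2, which starts haem synthesis in red cell precursors, had 434 of its 496 UMIs (87.5%) in the haemoglobin-rich barcodes, in 103 of the 124. The anion exchanger Slc4a1 had 8 of 9 there. Klf1 and Gata1, transcription factors of red cell precursors, had 26 and 6 UMIs in all and none in these barcodes. Hemgn, Rhd and Ermap, with 8, 11 and 11 UMIs in all, had none there either. Bpgm, which makes the bisphosphoglycerate that tunes oxygen binding in red cells, had 218 of 2344, so most of its UMIs lay elsewhere. Summed over all cells used and not used, the erythroid list ran from 277.2 to 333.4 CPM (UMIs scaled to a fixed total per library or class) across libraries, and Bnip3l, a mitophagy gene that many cells express, gave 26542 of its 41085 UMIs. Embryonic Hba-x and Hbb-y and the gene Hbb-bh2 were at 0 in every library.

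Among cells used, the haemoglobin level of a library moved with a few barcodes. In the library order above, the summed level was 1.19, 402, 710, 367, 63.3, 1373, 251 and 1681 CPM. Without the 99 cells that had 10 or more haemoglobin UMIs, which held 98.81% of the 105811 haemoglobin UMIs in cells used, it was 1.19, 5.16, 11.1, 9.37, 24.2, 12.2, 69.7 and 11.1 CPM. The order of the libraries changed between these: adipose high fat diet B was highest with all cells, and adipose high fat diet A without the 99. That library also had the largest share of barcodes with a haemoglobin UMI, 12.5%, against 0.34 to 5.33% in the other 7. Its median depth was the lowest of the 8, at 1161 UMIs per barcode, and the part of depth in this share was not tested.

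The cells with 10 or more haemoglobin UMIs were spread over classes. Of the 99, 42 were in endothelial clusters with no class name, 39 were capillary-like, 8 arterial-like, 4 venous-like, 4 lymphatic-like, 1 macrophage-like and 1 B cell-like. The 8 were 0.29% of 2791 arterial-like cells. They held 99.04% of the 11918 haemoglobin UMIs of the class.

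The share of cells with any haemoglobin UMI was compared after each cell had been thinned to 1000 UMIs, which left shallower cells out. When cells with under 10 haemoglobin UMIs were grouped by depth, haemoglobin CPM was lower in the deepest group than in the shallowest in every library. In adipose high fat diet A it was 284.6, 82.43 and 28.74 CPM from shallowest to deepest, at median depths of 663.5, 1456 and 3708 UMIs. The mesentery chow libraries had their highest level in the middle group, at 2.256 CPM in A and 8.821 CPM in B. Thinning does not remove the fall of CPM with depth, whose part in the shares below was not tested. Among arterial-like cells the share was 0, 0.48, 1.89, 1.2, 1.27, 0.72, 2.0 and 2.19% in the library order above, with a median of 1.235%. Among other endothelial cells it was 0.19, 0.98, 0.56, 1.49, 3.51, 2.22, 6.87 and 2.65%, with a median of 1.855%. The arterial-like share was the higher of the 2 in mesentery high fat diet A alone. Left out as too shallow were 3, 30, 11, 16, 37, 21, 29 and 18 arterial-like cells and 68, 412, 35, 163, 395, 383, 360 and 371 other endothelial cells. Without thinning, the share was lower in arterial-like cells in 8 of 8 libraries, with a median of 3.475% against 4.575%.

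Lymphocytes, which are not known to make haemoglobin, were the class of comparison. Thinned in the same way, T cell-like and B cell-like cells with a haemoglobin UMI were 0.64, 1.67, 0.88 and 1.12% in the 4 mesentery libraries, 7.14% in adipose high fat diet A (2 of 28, exact 95% binomial interval 0.88 to 23.5%) and 0 of 25 in adipose high fat diet B. Adipose chow held 15 and 8 such cells, none with a haemoglobin UMI. In T cell-like cells alone the mesentery shares were 0 of 102, 1 of 76, 0 of 90 and 0 of 48, and in B cell-like cells they were 1.85, 1.92, 1.45 and 2.44%, from 1, 2, 2 and 1 cells. Most mesentery lymphocytes with a haemoglobin UMI were therefore B cell-like, among them barcodes with Hbb-bt alone and 1 with 2333 haemoglobin UMIs, described below. The arterial-like share was below the lymphocyte share in mesentery chow A and B and in adipose high fat diet A. It was above it in mesentery high fat diet A (1.89%, 0.23 to 6.65%) and B (1.2%, 0.44 to 2.59%), each within the lymphocyte interval, which reached 3.13 and 6.1%. In adipose high fat diet B the arterial-like share was 2.19% (1.13 to 3.79%), under the limit of 12.0% that 0 of 25 lymphocytes allows. Macrophage-like cells there were at 0.36% (2 of 555, 0.04 to 1.3%), or 4.49% without thinning, where arterial-like cells were at 4.23%. Over all named non-endothelial cells the thinned share was 0.45, 0.78, 1.08, 0.41, 0.68, 0.88, 6.71 and 0.43% in the library order above. The arterial-like share was above this in both mesentery high fat diet libraries, adipose chow A and adipose high fat diet B. It was below in the rest. Median depths before thinning ran from 1105.5 to 4018 UMIs in lymphocytes and from 1606 to 5164 in arterial-like cells. Mesentery chow A had 0 of 175 arterial-like cells, which allows a share of up to 1.714%. The intervals and limits cover counting error only.

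**Figure D2:**
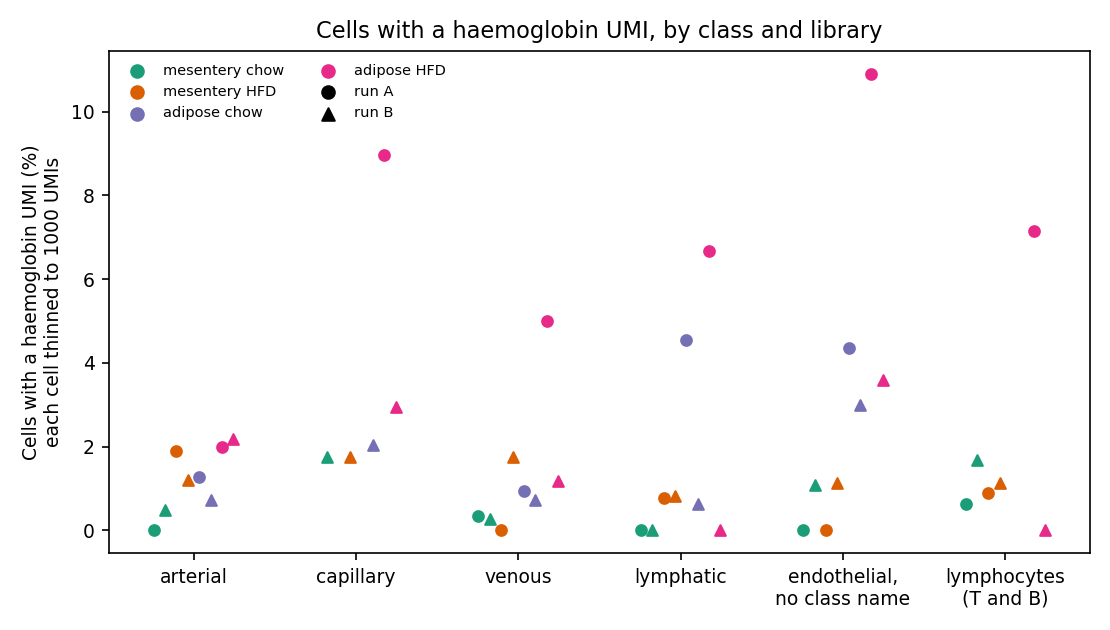
The vertical axis is the percent of cells with a haemoglobin UMI after thinning to 1000 UMIs, by class along the horizontal axis; each point is 1 library with at least 20 cells, coloured by group, circles for run A and triangles for run B. Adipose high fat diet A was the highest library in 5 of the 6 classes, lymphocytes included, and was next to adipose high fat diet B (2.0 against 2.19%) in arterial-like cells.

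Adipose high fat diet A was the highest library in most classes, and the order of the other libraries changed from class to class. In adipose high fat diet A the thinned share was 8.96% of capillary-like, 5.0% of venous-like, 6.67% of lymphatic-like and 10.91% of unnamed endothelial cells. Each of these exceeded the next highest library, at 2.94, 1.75, 4.55 and 4.35%. Of the 171 unnamed endothelial cells of that library before thinning, 91 were in the clusters that raised adipocyte or mural markers. Adipose high fat diet B, highest among arterial-like cells, had 0 of 185 lymphatic-like cells with a haemoglobin UMI, which allows up to 1.622%. Adipose chow A had 4.55% of lymphatic-like cells but 0.93% of venous-like and 1.27% of arterial-like cells. The medians over libraries were 2.03, 0.83, 0.705 and 2.06%. No test was made of the shares.

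Summed per library, haemoglobin was lower in arterial-like cells than in the other endothelial clusters in most libraries, a difference that rested on the cells with many haemoglobin UMIs. Of the 36 haemoglobin-rich barcodes that passed the filters, 32 were in endothelial clusters, and some of these had few endothelial markers. In mesentery high fat diet B, 1 barcode without class name held 4413 of the 6414 haemoglobin UMIs in cells used. It had 82.4% haemoglobin and 2 of 10 endothelial markers. Hba-a1 in arterial-like cells was 0, 11.0, 2.76, 54.5, 5.85, 21.3, 0 and 905 CPM in the library order above. In other endothelial cells it was 0.227, 145.5, 2.78, 108, 24.9, 345, 91.0 and 590 CPM. For Hba-a1, arterial-like cells were lower in 7 of 8 libraries, and adipose high fat diet B was the exception. For Hba-a2, Hbb-bs and the sum of the 4 genes they were lower in 6 of 8. The sum was higher in arterial-like cells in mesentery high fat diet A (22.0 against 10.7 CPM) as well as in adipose high fat diet B. The ranges of the classes overlap.

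The test compared both sums within each library (edgeR quasi-likelihood test, Benjamini-Hochberg over 10279 genes). Arterial cells also gave the contrasts of the choice, so the p values of the haemoglobin genes here are not free of it. The same holds below where all endothelial cells, or all but the lymphatic-like, are compared, since those sums hold the arterial-like cells. Of these genes 26.2% passed at an adjusted p under 0.05, 13.2% lower in arterial-like cells. Of the 5 genes, all of which passed the filter on low counts, Hba-a1 fell by 2.01 ± 0.62 (SE) on the log2 scale, adjusted p = 0.0325, and Hbb-bs fell by 2.14 ± 0.71, adjusted p = 0.0459. Hba-a2 differed by -1.82 ± 0.62 (adjusted p = 0.0513) and Hbb-bt by -1.61 ± 0.92 (0.242), which did not pass. Leaving out each library in turn, Hba-a1 did not pass without mesentery chow B (adjusted p = 0.1186), adipose chow A (0.0539), adipose chow B (0.1056) or adipose high fat diet A (0.0654). Hbb-bs passed without adipose high fat diet B (0.00357) and in none of the other 7 such fits. The range over these fits was 0.00365 to 0.1735 for Hba-a2. With the cells of 10 or more haemoglobin UMIs left out, Hba-a1, Hba-a2 and Hbb-bt no longer passed the filter, and Hbb-bs differed by -0.31 ± 0.23 (adjusted p = 0.38). Against named endothelial classes alone, Hba-a1 differed by -1.10 ± 0.91 (adjusted p = 0.452).

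**Figure D3:**
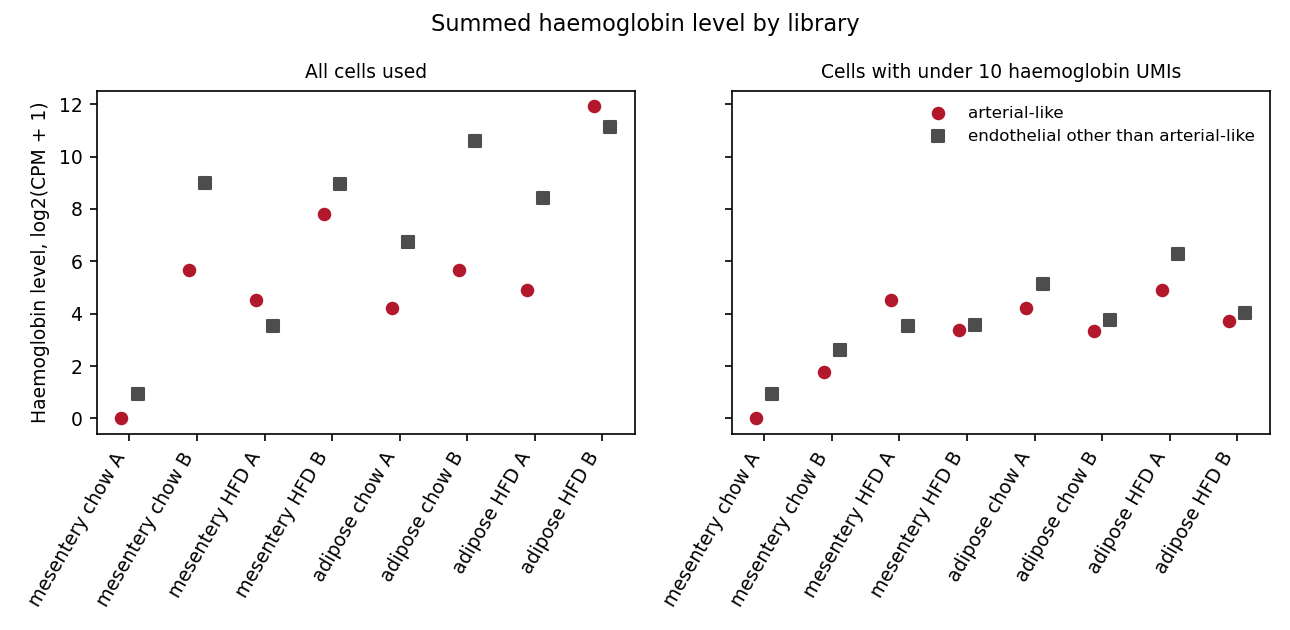
The summed haemoglobin level, as log2(CPM + 1) of counts summed per library, is shown for arterial-like cells (circles) and other endothelial cells (squares), with all cells used on the left and without cells of 10 or more haemoglobin UMIs on the right. The arterial-like level of 3884 CPM in adipose high fat diet B on the left falls to 12.3 CPM on the right.

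Within arterial-like cells, single cells set the level of a group. The summed haemoglobin level was 0, 50.0, 22.0, 225, 17.5, 50.2, 29.0 and 3884 CPM in the library order above, from 0, 145, 8, 682, 6, 127, 8 and 10942 UMIs. Adipose high fat diet B was far above the others, and 4 of its 567 arterial-like cells, with 7915, 2893, 70 and 30 haemoglobin UMIs, held 10908 of its 10942. Without the 8 arterial-like cells of 10 or more haemoglobin UMIs the level was 0, 2.42, 22.0, 9.28, 17.5, 9.15, 29.0 and 12.3 CPM. In these values adipose high fat diet (29.0 and 12.3) overlaps adipose chow (17.5 and 9.15) and mesentery high fat diet (22.0 and 9.28) over both runs. Within each run adipose high fat diet was the highest of the 3, at 29.0 against 17.5 and 22.0 in run A and 12.3 against 9.15 and 9.28 in run B, which is a description with no test.

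The other haemoglobin genes had their highest level in the same library. Hba-a2 in arterial-like cells was 0, 12.4, 11.0, 40.0, 2.92, 13.4, 3.63 and 654 CPM. Hbb-bs was 0, 24.2, 8.27, 115, 8.77, 14.6, 25.4 and 1830 CPM. Hbb-bt was 0, 2.42, 0, 15.5, 0, 0.79, 0 and 496 CPM. Each was highest in adipose high fat diet B, and the 2 libraries of that group lay far apart. In the other library of the group, run A, Hba-a1 and Hbb-bt were at 0 of 275554 UMIs, where 3 counts are 10.9 CPM.

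High fat diet minus chow in adipose arterial-like cells was a fitted log2 difference of 4.87 for Hba-a1, 5.06 for Hba-a2, 6.21 for Hbb-bs and 8.46 for Hbb-bt. Within run A the same differences (1 UMI added to each sum) were -1.27, 0.31, 1.31 and 0.31, and within run B 5.38, 5.56, 6.93 and 8.71. Mesentery minus adipose on high fat diet was -3.82, -3.58, -3.84 and -4.59. These are descriptions, with no test. In the fit of all genes, 0 of 10011 passed in either contrast (0%) by edgeR, with 70 and 54 at an unadjusted p under 0.05. DESeq2 also called 0 in both. With the run as a block 26 passed in the adipose diet contrast and 12 in the tissue contrast under high fat diet, or 0.26% and 0.12%, and 20 and 7 (0.2% and 0.0698%) without the cells of 10 or more haemoglobin UMIs.

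Diet in mesentery was not itself a contrast of the choice and was tested. It shares the mesentery high fat diet libraries with a contrast that was, so its p values for the haemoglobin genes are not free of the choice. In mesentery arterial-like cells Hba-a1 was at 0 and 11.0 CPM on chow and at 2.76 and 54.5 CPM on high fat diet. The groups overlap. No gene passed among 10011 (0%; 244 at an unadjusted p under 0.05, and 1 by DESeq2), and Hba-a1 differed by 2.19 ± 1.85 (adjusted p = 1). With the run as a block 315 genes passed (3.15%), 3 of the 5 among them. Hba-a1 was then higher on high fat diet by 2.27 ± 0.51 (adjusted p = 0.0176), Hbb-bs by 2.29 ± 0.48 (0.0121) and Hbb-bt by 2.57 ± 0.52 (0.0128), while Hba-a2 differed by 1.80 ± 0.52 (0.0789). In the library order above, the mesentery arterial-like sums held 0, 32, 1 and 165 UMIs of Hba-a1, 0, 70, 3 and 349 of Hbb-bs and 0, 7, 0 and 47 of Hbb-bt. The Hbb-bt difference thus rests on the run B pair alone, with run A at 0 in both libraries. Hbb-bt also passed the filter on low counts only through mesentery and adipose high fat diet B, so its call is no test. With no filter on low counts and no block, all 4 haemoglobin genes passed in this contrast, at adjusted p = 0.00333 for Hba-a1, 0.0323 for Hba-a2, 0.00255 for Hbb-bs and 0.0109 for Hbb-bt. The 3 calls of the blocked fit did not pass without mesentery chow B or without mesentery high fat diet B. Of the 145 and 682 haemoglobin UMIs in these 2 libraries, 1 cell in each held 138 and 654. Without cells of 10 or more haemoglobin UMIs, 3.18% of genes passed with the block, and Hbb-bs, the only haemoglobin gene past the filter, differed by 3.05 ± 1.02 (adjusted p = 0.146).

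Tissue on chow, which shares the adipose chow libraries with a contrast of the choice, gave no call for any of the 5 genes. Mesentery minus adipose in arterial-like cells was -1.14 ± 1.91 for Hba-a1, -0.34 ± 1.69 for Hba-a2, 0.17 ± 1.81 for Hbb-bs and 1.35 ± 2.90 for Hbb-bt (edgeR, adjusted p = 1 for each). No gene passed among 10011 (0%; 247 at an unadjusted p under 0.05, and 1 by DESeq2), and with the block 219 did (2.19%), none of them a haemoglobin gene. Without cells of 10 or more haemoglobin UMIs 2.21% passed with the block, and Hbb-bs turned to -3.34 ± 1.00 (adjusted p = 0.114). The chow libraries of both tissues overlap, at 0 and 11.0 against 5.85 and 21.3 CPM for Hba-a1.

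Alpha and beta globin were not in 1 fixed ratio. Over all barcodes of a library, alpha UMIs were 32.2 to 47.6% of haemoglobin UMIs. In the haemoglobin-rich barcodes they were 42.56% (exact 95% binomial interval 42.38 to 42.75%), with a median of 43.69% per barcode. Of the 124, 1 was above 70%. The interval covers counting error of UMIs only, and single barcodes ran from 23.96 to 88.68%. In the 87 barcodes with 10 or more haemoglobin UMIs that made up under 10% of their UMIs, the pooled share was 50.61% and the median 57.8%, and 23 of 87 (26.4%) were above 70%. The rich barcodes had a median of 1594 haemoglobin UMIs and the 87 a median of 58, so counting error is wider in the 87. The limit of 70% was chosen after the values had been seen, and the difference was not tested.

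**Figure D4:**
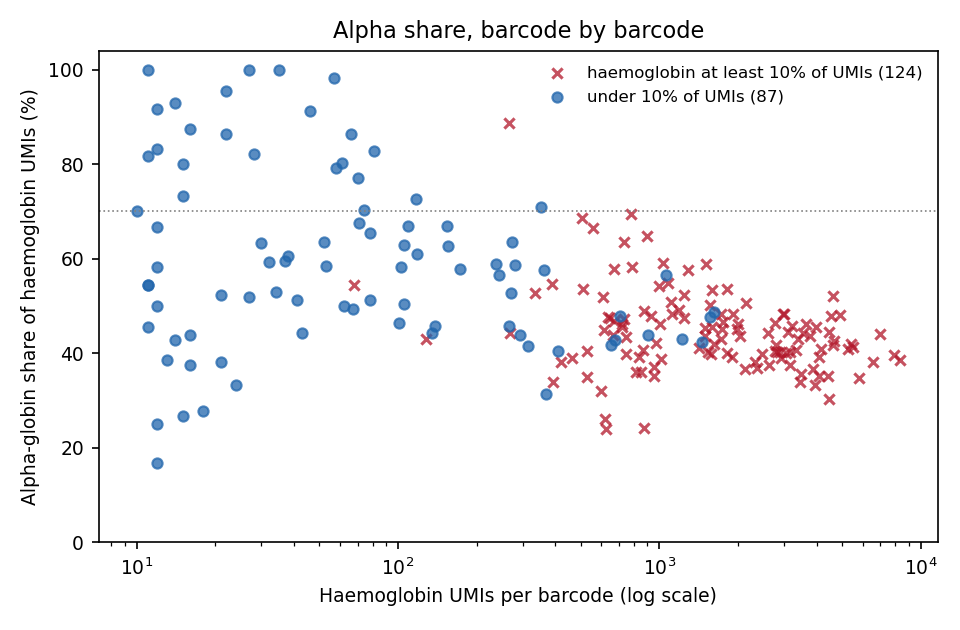
Each point is a barcode with 10 or more haemoglobin UMIs, with its haemoglobin UMIs on a log axis and the alpha-globin share in percent. Crosses are the 124 barcodes of at least 10% haemoglobin and circles the other 87; the dotted line is 70%. Crosses gather around their median of 43.69%, and the circles above the line lie mostly under 100 UMIs.

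High alpha shares were found in arterial-like cells and in other classes. Of the 87 barcodes, 6 were arterial-like. None of these was among the 4 barcodes over 98% alpha, a limit not set in advance, and this absence was not tested. In adipose high fat diet B, an endothelial cell without class name had 35 alpha UMIs (20 Hba-a1 and 15 Hba-a2) of 35, and a capillary-like cell had 56 of 57. In adipose chow B an unnamed endothelial cell had 11 of 11, and a barcode that did not pass the filters had 27 of 27. The 6 arterial-like cells ranged from 41.74 to 86.36%, with a median of 61.93%, and 2 of the 6 (33.33%) were above 70%. The 30 capillary-like cells had a median of 57.45%, with 7 (23.33%) above 70%, and the 24 unnamed endothelial cells 59.87%, with 8 (33.33%). The share by number of haemoglobin UMIs was 61.87% at 10 to 29, 68.51% at 30 to 99 and 49.91% at 100 to 999.

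Among cells with under 10 haemoglobin UMIs, 50.99% of 1112 UMIs were alpha in endothelial clusters (48.0 to 54.0%) and 39.2% of 148 in other clusters (31.3 to 47.5%). B cell-like cells had 1 alpha UMI of 24 (4.17%), while macrophage-like cells had 28 of 54 (51.85%), inside the endothelial interval. By class the share was 55.58% in capillary-like (430 UMIs), 47.37% in arterial-like (114), 44.85% in lymphatic-like (136) and 44.44% in venous-like cells (99), with intervals that overlap. The classes come from unequal mixes of libraries, and the share by library ran from 31.45% in adipose chow A to 54.87% in adipose high fat diet B. The differences were not tested. In B cell-like cells of mesentery chow, 3 cells held Hbb-bt and no other haemoglobin gene, with 9 and 3 UMIs in run B and 2 in run A.

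Endothelial cells were higher than non-endothelial cells for Cyb5r3, and the haemoglobin genes did not pass. Of 10495 genes tested within library, 31% passed, 15.6% higher in endothelial cells. Hba-a1 ranged from 0.193 to 646.5 CPM in endothelial cells and from 0.362 to 592 CPM in other named classes, with the endothelial value higher in 6 of 8 libraries. It differed by 3.56 ± 1.52 (edgeR, adjusted p = 0.104), Hba-a2 by 3.77 ± 1.52 (0.087), Hbb-bs by 3.67 ± 1.63 (0.117) and Hbb-bt by 1.88 ± 1.49 (0.386). A single B cell-like barcode of mesentery high fat diet A held 2333 of the 2339 haemoglobin UMIs of the non-endothelial cells there. Without that library Hba-a1 was higher in endothelial cells by 4.43 ± 0.79 (adjusted p = 0.00293), Hba-a2 by 4.81 ± 0.77 (0.00155) and Hbb-bs by 4.51 ± 0.95 (0.00722). DESeq2 on all libraries called these 3 as well, at 3.41 (0.00646), 5.14 (0.00041) and 4.04 (0.00357). Without cells of 10 or more haemoglobin UMIs, Hbb-bs differed by 0.64 ± 0.30 (adjusted p = 0.135). With unnamed endothelial cells left out, Hba-a1 differed by 2.93 ± 1.38 (adjusted p = 0.132).

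Cyb5r3 was highest in lymphatic-like cells. Over the libraries its level was 671 ± 181 CPM (SD, n = 8) in lymphatic-like cells, 292 ± 52.7 in arterial-like, 253 ± 32.6 in venous-like and 206 ± 35.9 in unnamed endothelial cells. It was 248 ± 68.7 in capillary-like cells (n = 7) and 249.5 ± 97.5 in fibroblast-like cells (n = 8). Lower levels were found in mural-like cells at 145 ± 29.5 (n = 4), macrophage-like cells at 128 ± 36.5 (n = 6), T cell-like cells at 67.2 ± 79.8 (n = 8) and B cell-like cells at 36.7 ± 30.1 (n = 5). From arterial-like down to unnamed endothelial cells, neighbours in this order differed by less than the larger SD of the pair. Lymphatic-like cells lay from 401 to 922 CPM and arterial-like cells from 230 to 391, with no overlap.

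**Figure D5:**
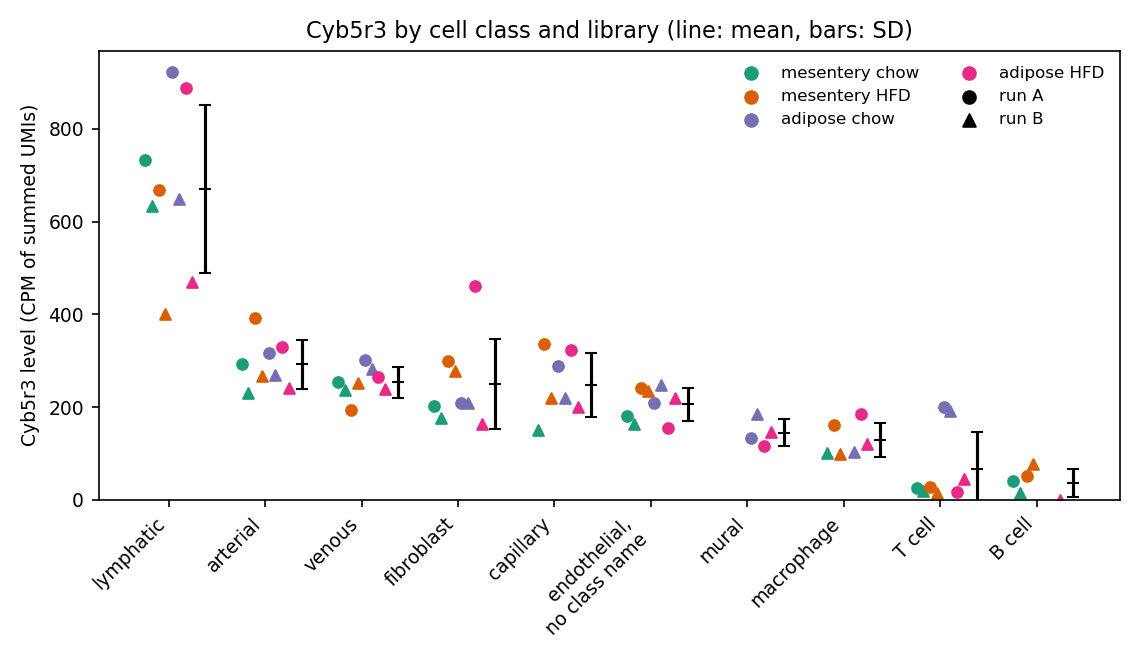
Cyb5r3 in CPM of summed UMIs is shown by cell class and library, coloured by group, circles for run A and triangles for run B, with the mean and SD as a line and bars. All lymphatic-like values lie at 401 CPM or above, over every arterial-like value.

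The lymphatic-like class was compared with other endothelial cells after these levels had been seen. Of 8809 genes tested, 34.7% passed, 16.9% higher in lymphatic-like cells, and Cyb5r3 was higher by 1.34 ± 0.12 on the log2 scale (edgeR, adjusted p = 7.94e-06). Lymphatic-like cells had more than arterial-like cells in 8 of 8 libraries. Hbb-bs, the only haemoglobin gene past that filter, differed by -3.60 ± 1.87 (adjusted p = 0.168), while DESeq2 called Hbb-bs, Hba-a1 and Hba-a2 lower (0.00543, 0.0482 and 0.0268). Between all endothelial and non-endothelial cells Cyb5r3 was higher by 1.24 ± 0.19 (adjusted p = 0.000715), in 8 of 8 libraries. With unnamed endothelial cells left out, these 2 differences were 1.26 ± 0.11 (adjusted p = 4.01e-06) and 1.34 ± 0.21 (0.000713). Levels with them were 214.5 to 582 CPM against 84.2 to 207.5 CPM, which did not overlap.

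Between arterial-like and other endothelial cells the order of Cyb5r3 varied by library. In arterial-like cells it was 292.5, 230, 391, 267, 316, 268, 330 and 242 CPM in the library order above, and in other endothelial cells 328, 212, 512, 244, 632.5, 246, 569 and 231 CPM. Arterial-like cells were higher in 4 of 8 libraries, and the difference of -0.18 ± 0.13 did not pass (adjusted p = 0.384). Arterial-like cells with a haemoglobin UMI, 87 in all, differed from the rest in no fixed direction. With against without such a UMI, Cyb5r3 was 169.8 against 231.1 CPM in mesentery chow B, 553.5 against 386.3 in mesentery high fat diet A and 259.8 against 267.3 in mesentery high fat diet B. In adipose it was 0 against 321.2 CPM in chow A, 302.6 against 266.2 in chow B, 467.5 against 322.4 in high fat diet A and 209.2 against 244.7 in high fat diet B. These sums held 3 to 24 cells with a haemoglobin UMI each. Run A exceeded run B in each group.

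No contrast of diet or tissue called Cyb5r3 in arterial-like cells. High fat diet minus chow was 0.26 ± 0.40 in mesentery and -0.03 ± 0.40 in adipose, and mesentery minus adipose was -0.09 ± 0.40 on chow and 0.19 ± 0.40 on high fat diet. The interaction was 0.29 ± 0.57, and each adjusted p was at least 0.9999 (edgeR). For the interaction 0 of 10011 genes passed (0%; 35 at an unadjusted p under 0.05). With the run as a block the mesentery diet difference was 0.24 ± 0.20 (adjusted p = 0.799), and no Cyb5r3 contrast passed, beside 0.03% of genes for the interaction. In all endothelial cells the level was 322.5, 214.5, 494, 249, 582, 248, 538 and 233 CPM in the library order above. The groups overlap, with run A above run B in all 4, and the same 5 contrasts were 0.43, -0.07, -0.58, -0.08 and 0.50, with none called among 13666 genes (0%; 255, 119, 465, 89 and 96 at an unadjusted p under 0.05). With the block 0.0512% of genes passed for the mesentery diet contrast, 0.0293% for the adipose one, 0.154% for tissue on chow and 0% for the last 2, Cyb5r3 not among them, and the shares of the first 3 were equal without the cells of 10 or more haemoglobin UMIs.

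Genes of the same pathway were described from lists, as counts. Only the 5 members were left out of clustering, so list genes may have shaped the classes. For a gene used in clustering, its adjusted p between classes is no test, here and in the lists below. Among 5 tested genes of cytochrome b5 and its reductases (7 listed), Cyb5r4 was higher in arterial-like than other endothelial cells by 0.35 ± 0.10 (adjusted p = 0.0203) and Cyb5a, an electron carrier that Cyb5r3 reduces, was lower (-0.81 ± 0.13, 0.000582). The list's median was -0.15, beside -0.02 over all genes, of which 26.2% were called. Between endothelial and non-endothelial cells 3 were higher and 2 lower, and between lymphatic-like and other endothelial cells 2 were higher and 3 lower, beside 31 and 34.7% of all genes called in these comparisons. Cyb5b was among the higher in both, at 0.69 ± 0.19 (adjusted p = 0.0207) and 0.69 ± 0.13 (0.00152), as was Cyb5a, at 0.58 ± 0.15 (0.0139) and 0.54 ± 0.17 (0.0283).

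Of 9 nitric oxide genes tested, 3 were higher and 2 lower in arterial-like cells, with a median of 0.19, beside 13% higher and 13.2% lower of all genes. Nos3, the endothelial nitric oxide synthase, was higher by 1.18 ± 0.17 (adjusted p = 0.000291) and Ddah2, which degrades an inhibitor of it, by 0.97 ± 0.16 (0.000612). Cav1, which binds Nos3, differed by 0.25 ± 0.17 (0.324). In the blocked fit of diet in mesentery arterial-like cells 3 were lower on high fat diet, Gucy1b1 and Gucy1a1, which form the nitric oxide receptor, and Nos3, the last at -0.93 ± 0.20 (0.0142), beside 3.15% of all genes called. Tissue on chow in that fit had 3 higher in mesentery, with Nos3 at 0.97 ± 0.20 (0.0133), beside 2.19%. Without the block 0 of the 9 were called in either contrast. These contrasts share the mesentery chow libraries.

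Among haem synthesis genes, Alas1, which starts the pathway outside red cells, was higher in arterial-like cells (1.02 ± 0.17, adjusted p = 0.000845), and Alad, which acts in the next step, was lower (-1.32 ± 0.26, 0.00257). Of 8 tested genes of haem and haemoglobin clearance (11 listed), 1 was higher and 4 lower, with a median of -0.81, beside 13% and 13.2% of all genes. Haem oxygenase Hmox2 was the higher, and Hmox1, Blvrb, Hp and the ferritin chain Fth1 were lower, with Fth1 at -0.94 ± 0.14 (0.000352). Of 5 tested erythroid genes Bpgm was higher, by 2.08 ± 0.26 (9.24e-05), and 0 were lower. Bpgm had 738 UMIs in arterial-like cells, where Alas2 had 10. Cygb, the one other globin past the filter, was lower in arterial-like cells (-2.64 ± 0.21, 2.65e-06), in endothelial against other cells (-1.84 ± 0.61, 0.0439) and in lymphatic-like against other endothelial cells (-4.91 ± 0.23, 9.23e-08). Among platelet genes Itga2b and among neutrophil genes Lcn2 were each the only gene tested. Both were lower in arterial-like cells, at -2.69 ± 0.49 (0.00159) and -4.13 ± 0.30 (1.25e-06). Lcn2 was a leading gene of lymphatic-like clusters 4 and 12, and was higher by 6.65 in lymphatic-like than in other endothelial cells.

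The genes most like Cyb5r3 in pattern were compared over 31 sums of the arterial-, capillary-, venous- and lymphatic-like classes by library, among 6424 genes of at least 20 CPM on average. They were Tbx1 (Pearson r = 0.904), Hjurp (0.904), Dtx1 (0.903), Nrxn2 (0.891) and Rtkn (0.881). Tbx1 was at 130.6 to 223.5 CPM in lymphatic-like sums and at most 17.5 CPM in the others. For the haemoglobin sum the nearest genes were Fmnl3 (0.71), Picalm (0.687), Gpr160 (0.684), Prickle3 (0.675) and Dnajc8 (0.667). Sums of 1 library share depth and free transcripts, so these values are a description.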

How the data were processed

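Single-cell 3′ libraries were analysed from the UMI counts per gene and barcode that the authors deposited, not normalised. The file headers give Cell Ranger 3.0.2 for run A and 5.0.0 for run B, and the submitters' processing notes name mm10 and Seurat 4.3.0. The sources used here do not give the settings of cell calling or the sort gate. Members and gene lists were chosen with earlier results of these data known.

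The 30406 genes of both feature lists were kept. Cells with 500 UMIs, 300 genes and at most 10% mitochondrial UMIs were clustered (scanpy 1.11.5, leidenalg 0.10.2, 2000 variable genes without the 5 members, 30 components, resolution 1.0). Scrublet's automatic threshold marked 38 cells (0.16%), so the highest scores were called, 0.8% per 1000 cells, which removed 857 (3.58%). A cluster was called X-like when at least 3 markers were raised 1.5-fold; unnamed clusters stayed unnamed, so class names are rebuilt.

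Counts were summed per library and class and tested with edgeR 4.0.16 (quasi-likelihood, TMM, filterByExpr), adjusted by Benjamini-Hochberg over all genes; the threshold was 0.05. Class comparisons had the library as a block, and for genes used in clustering they are no test. DESeq2 1.42.0, other size factors, no filter, the run as a block, each library left out and, added after seeing the data, cells of 10 or more haemoglobin UMIs or unnamed endothelial cells left out were alternatives. The labels say the experiment was carried out a second time, so run letters pair the libraries; same-run deviations correlated at 0.513 to 0.633 over arterial-like cells in all 6 pairs of groups. Level is CPM; intervals are exact binomial. On simulated data the unblocked mesentery diet test in arterial-like cells recovered 0 of 100 genes changed by 1 on the log2 scale. Of 100 changed by 2 it recovered 3. The test of arterial-like against other endothelial cells recovered 95 and 100 of 100, with 6 false calls. Named genes were the 5 members, the 5 nearest in pattern to the haemoglobin sum and to Cyb5r3, and at most 4 of each list by UMIs; some list genes are not reported here.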

Additional observations from a re-analysis of the deposited data

Results flagged for a closer look

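Cyb5r3 in all endothelial cells moved in opposite directions with diet in the 2 tissues. The log2 difference of high fat diet minus chow was 0.62 for mesentery in run A, 0.21 for mesentery in run B, -0.11 for adipose in run A and -0.09 for adipose in run B. The interaction was 0.50 ± 0.94 in the fit over all endothelial cells (edgeR, adjusted p = 1), which did not pass, and 0.43 ± 0.26 with the run as a block (adjusted p = 1). The share of lymphatic-like cells, in which Cyb5r3 is highest, moved with these values in run A. Of run A endothelial cells they made up 26.84% (chow) against 59.48% (high fat) in mesentery and 54.51% against 39.87% in adipose. Run B had 6.698% against 5.0% for mesentery and 3.232% against 5.483% for adipose. The part of this share in the difference was not tested. In arterial-like cells, the differences were 0.42, 0.21, 0.07 and -0.15.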

How the results depend on the processing

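Counts of genes past the threshold, 0 in each diet and tissue contrast of the unblocked, filtered edgeR fits, moved with the run as a block. In arterial-like cells the block gave 315 genes (mesentery diet), 26 (adipose diet), 219 (tissue, chow), 12 (tissue, high fat diet) and 3 (interaction). With the cells of 10 or more haemoglobin UMIs also left out, the first 4 became 319, 20, 222 and 7. With no filter on low counts the 5 counts were 90, 19, 74, 24 and 5, and DESeq2 called 1 gene in the first and 1 in the third. Leaving out each library, with and without the block, these 5 ran from 0 to 505, 0 to 112, 0 to 342, 0 to 44 and 0 to 40. In all endothelial cells the block gave 7 (mesentery diet), 4 (adipose diet) and 21 (tissue, chow), the same counts with those cells left out, and DESeq2 gave 7, 10 and 90, and 4 (tissue, high fat diet). Leaving out each library these 4 ran from 0 to 77, 0 to 21, 0 to 209 and 0 to 4. Without the filter 4053 genes passed between arterial-like and other endothelial cells, and DESeq2 called 5076 between endothelial and non-endothelial cells. The cause was not tested.

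Among the members, leaving out each library turned the direction of several differences, none of them called without the block and with the filter. With no filter on low counts all 4 haemoglobin genes passed for diet in mesentery. For diet in mesentery the ranges were -1.22 to 8.57 for Hba-a1, -0.65 to 9.57 for Hbb-bs, -4.42 to 6.97 for Hbb-bt and -0.13 to 0.59 for Cyb5r3. For tissue on chow they were -7.51 to 0.14 for Hba-a1, -6.88 to 1.28 for Hba-a2, -7.19 to 0.96 for Hbb-bs, -5.37 to 7.43 for Hbb-bt and -0.37 to 0.14 for Cyb5r3, and Hbb-bs was at -3.45 without the cells of 10 or more haemoglobin UMIs and at -3.34 with the block as well. Cyb5r3 ranged from -0.31 to 0.24 in the adipose diet contrast (0.01 with no filter), -0.19 to 0.49 in the tissue contrast under high fat diet and -0.11 to 0.59 as an interaction, which ran from -0.30 to 1.22 in all endothelial cells. The block changed the call of Hba-a1, Hbb-bs and Hbb-bt for diet in mesentery and no other call of a member. Cyb5r3 stayed called in lymphatic-like against other endothelial cells and in endothelial against non-endothelial cells under every alternative run. Without thinning, the median share of cells with a haemoglobin UMI was 3.475% in arterial-like and 4.575% in other endothelial cells, and the median library level was 1730 CPM over all barcodes against 384.5 CPM in cells used. There were 2 pools per group, 3 counts were worth 0.991 to 10.9 CPM in arterial-like sums, and a count of 0 genes called does not show that no gene differed.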
